A study of Mus musculus with 16 samples.

Results

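The 53 receptors described here are the odorant receptor genes Olfr620 to Olfr692 of mouse chromosome 7 that the array measured with a probe set of their own, 1 gene of this number range being left out. They were chosen by gene symbol alone, out of 19505 genes and 1091 odorant receptor genes measured, and each is read by 1 probe set. The RefSeq table of assembly GRCm38.p6 lists 71 genes in the same range, 56 coding and 15 pseudogenes. Of the coding genes, 3 (Olfr639, Olfr643 and Olfr687) were not analysed here.

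All samples came from S100a5-tauGFP mice, in which green fluorescence reports S100a5, the gene of a calcium-binding protein whose transcription depends on the odor-driven activity of sensory neurons. RNA was taken from cells of the olfactory mucosa sorted by that reporter, so the GFP+ and GFP- fractions are defined by it and not by any receptor. The 4 groups are GFP+ cells after octanol, GFP- cells after octanol, GFP+ cells after vehicle and GFP- cells after vehicle, with 4 Clariom S arrays each, and every array holds a pool of 3 mice. Mice of both sexes aged 7 to 12 weeks (24 in all) stayed singly in clean air chambers for 40 h, and from 26 h on received octanol, a straight-chain aliphatic alcohol, or filtered air for 10 s in every 20 min. The GFP- fraction still holds other cells of the mucosa, and both fractions hold mature neurons: Omp, a marker of those neurons, lay between 17.98 and 18.24 log2 on all 16 arrays. Of 12 mature neuron markers, Omp among them, 6 passed as higher in GFP+ cells and 0 as lower for octanol (median 0.30 log2) and 5 and 0 for vehicle (median 0.25 log2), with all 12 fitted above 0 in both. Their part in the receptors' differences was not tested.

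Each olfactory sensory neuron expresses a single odorant receptor gene from a single allele, and the receptor protein couples through an olfactory G protein to adenylyl cyclase and a cyclic nucleotide-gated channel. Class I receptors resemble those of fish, lie in mouse in a cluster on chromosome 7 that also surrounds the beta-globin genes, and are expressed mostly by neurons of the dorsal zone of the epithelium. Many class I receptors that have been studied respond to carboxylic acids, and some to aliphatic alcohols or aldehydes.

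By the MOR number among their synonyms, 51 of the 53 receptors belong to class I (MOR1 to MOR42), in 20 MOR families. Olfr652 and Olfr681 carry the numbers MOR318 and MOR4014 in the table and lie between class I genes in the cluster. The values are the authors' log2 signals. A background level of 6.32 log2 was taken from 319 vomeronasal receptor genes, as the 95th percentile of their averages over 16 arrays. Of the 53 receptors, 40 lay above it on all 16 arrays, 10 on some arrays and 3 (Olfr631, Olfr642 and Olfr688) on none.

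Their means over 16 arrays ran from 5.19 log2 (Olfr642) to 12.66 log2 (Olfr672), with a median of 9.0, against 8.80 for the 70 other class I receptors and 9.81 for 956 class II receptors. These are log2 signals of different probe sets and carry no correction for length or probe response, so they do not order the receptors by transcript number. Near relatives of 1 MOR family can share sequence, and how far their probe sets read each other was not tested. In bulk arrays of sorted cells, fewer neurons that chose a receptor and less receptor RNA per neuron cannot be told apart, which holds for every difference below.

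**Figure D1:**
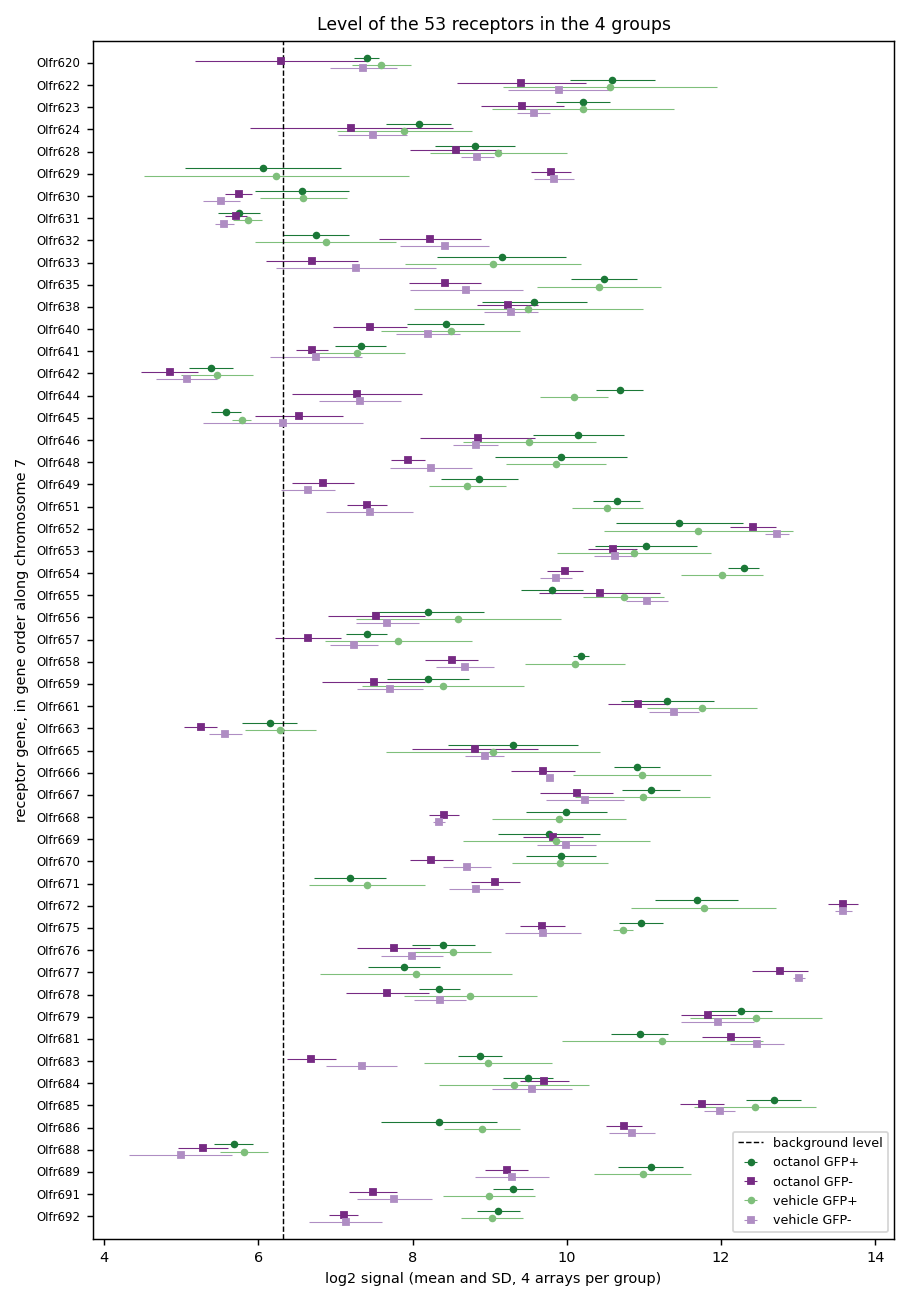
Log2 signal of each of the 53 receptors (rows, in gene order) as the mean and SD of 4 arrays in GFP+ and GFP- cells of the octanol mice and then of the vehicle mice; the dashed line is the background level of 6.32 log2. Olfr677, Olfr629 and Olfr672 have GFP- values far to the right of their GFP+ values, while Olfr644 and Olfr651 show the opposite order.

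The receptors split between the sorted fractions, and among those that passed the test more were higher in GFP+ cells than lower. After octanol 30 of 53 passed the test (limma, adjusted p under 0.05 over all 19505 genes), where 29.9% of all genes did. In GFP+ cells 22 of them were higher, against 16.7% of all genes, and 8 lower, against 13.2%. After vehicle 27 passed, against 28.2% of all genes, 20 as higher and 7 as lower, against 14.7% and 13.5% of all genes. The fractions did not overlap, 4 arrays against 4, in 29 receptors after octanol (21 higher, 8 lower), against 28% of all genes, and in 22 after vehicle (17 higher, 5 lower), against 27.7%. The sign was the same in all 4 pools for 37 receptors after octanol (29 higher, 8 lower), against 47.3% of all genes, and for 30 after vehicle (23 higher, 7 lower), against 47.7%. The median difference over the 53 receptors was 0.76 log2 after octanol and 0.52 after vehicle, beside 0.14 and 0.13 over all genes. The balance depends on how arrays are scaled. As deposited, the array medians over all genes lay between 7.85 and 7.91 log2 in GFP+ cells and between 8.12 and 8.25 in GFP- cells. With each array centred on its median, 34 receptors (64.2%) were higher and 6 lower after octanol, and 33 (62.3%) and 7 after vehicle. The same scaling gave all genes median differences of 0.41 and 0.46 and called 58.5% of them higher after octanol and 65.4% after vehicle, so the receptors' share of higher calls lay near that of all genes. With each array centred on all odorant receptors, 15 were higher and 12 lower after octanol, beside 2.75% and 44.8% of all genes, and 17 and 8 after vehicle, beside 3.23% and 22.5%. With each array centred on the other class I receptors (chosen after seeing the data), 11 were higher and 13 lower after octanol, beside 1.32% and 40.6% of all genes, and 10 and 11 after vehicle, beside 1.18% and 22.7%. In that fit the smallest unadjusted p of a receptor (limma) was 3.2e-60 after octanol, against 1.4e-07 as deposited. Its p-values are thus on another scale, and its counts do not show the effect of scaling alone. None of the receptors with the largest rises and falls reversed its direction under any of these scalings. S100a5 itself differed by 0.86 log2 after octanol and 0.82 after vehicle, in the direction of the sort.

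The exposures used different mice, so each sort difference was measured in separate pools. In GFP+ cells 19 receptors were higher after both exposures and 7 lower after both, against 9.1% and 11.8% of all genes, and 0 were called in opposite directions. Another 4 passed after octanol only (Olfr620, Olfr622, Olfr645 and Olfr667) and 1 after vehicle only (Olfr688). The difference between the exposures passed for none of these 5. All 53 fitted differences had the same sign after both exposures, 41 above 0 and 12 below. That match rests in part on vehicle replicate 2, described below. Without it the vehicle differences of Olfr628, Olfr638, Olfr640, Olfr653, Olfr665 and Olfr685 lay below 0, from -0.45 to -0.01 log2. Their octanol differences were above 0. Over the 53 receptors the differences of the 2 exposures correlated at r = 0.983, as a description across genes; each receptor was read by the same probe set in both.

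**Figure D2:**
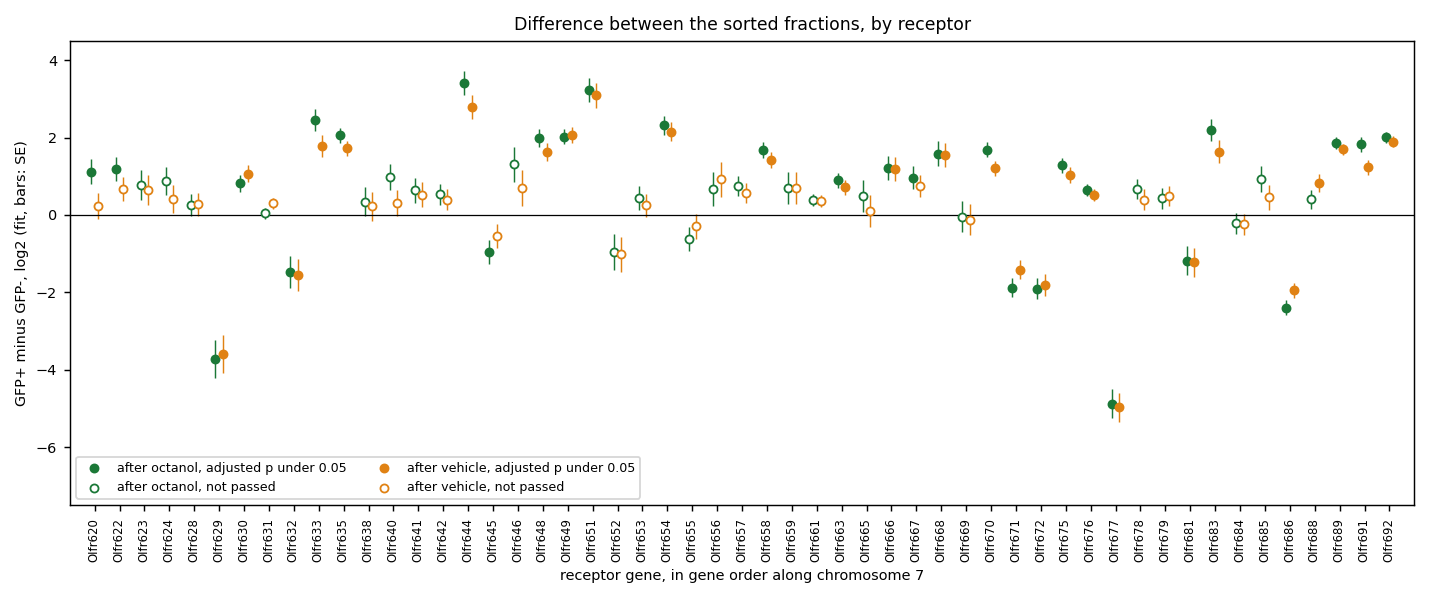
Fitted GFP+ minus GFP- difference (log2, bars are the SE) of each receptor in gene order, after octanol (green) and after vehicle (orange); filled points passed an adjusted p of 0.05. Values run from -4.96 for Olfr677 after vehicle to 3.40 for Olfr644 after octanol, and with all pools both exposures give each receptor the same sign.

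Olfr651, a MOR31 receptor, was among the receptors most shifted to GFP+ cells. It measured 10.34, 10.60, 11.07 and 10.57 log2 in octanol GFP+ arrays, against 7.21, 7.22, 7.43 and 7.76 in octanol GFP- arrays. After vehicle it measured 10.45, 11.002, 9.93 and 10.73 in GFP+ arrays and 7.41, 6.92, 8.23 and 7.20 in GFP- arrays. Every GFP+ array lay well above every GFP- array in both exposures. The difference was 3.24 (SE 0.31, adjusted p = 3.26e-05) log2 after octanol, or 9.44-fold, and 3.09 (SE 0.31, adjusted p = 4.60e-05) after vehicle, or 8.49-fold.

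Olfr644, of the MOR13 family, reached 10.65, 10.31, 11.05 and 10.72 log2 on octanol GFP+ arrays, against 6.68, 6.45, 7.77 and 8.21 on octanol GFP- arrays. Vehicle arrays gave 9.63, 10.67, 9.94 and 10.13 in GFP+ cells and 7.72, 6.88, 6.83 and 7.82 in GFP- cells. The octanol GFP- arrays were more spread than the octanol GFP+ arrays, and the fractions overlapped in neither exposure. Its difference was 3.40 (SE 0.31, adjusted p = 2.10e-05) after octanol (10.6-fold) and 2.78 (SE 0.31, adjusted p = 9.12e-05) after vehicle (6.86-fold).

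Olfr654, of the MOR38 family, was the brightest of the receptors with a large rise. It read 12.08, 12.32, 12.55 and 12.22 log2 in octanol GFP+ arrays and 9.95, 10.04, 9.67 and 10.23 in octanol GFP- arrays. In vehicle GFP+ arrays it read 11.46, 12.72, 11.85 and 12.00, against 9.99, 9.55, 10.00 and 9.89 in vehicle GFP- arrays. The fractions were apart in both exposures, by 2.32 (SE 0.24, adjusted p = 6.21e-05) after octanol and 2.15 (SE 0.24, adjusted p = 1.07e-04) after vehicle, 4.99-fold and 4.44-fold. Olfr655, its neighbour and the other MOR38 receptor, did not pass, with -0.62 (SE 0.32) after octanol and -0.30 (SE 0.32) after vehicle.

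Olfr692, the last gene of the range, has also been described in vomeronasal neurons that detect pup odors. Here it measured 9.51, 9.02, 8.87 and 9.04 log2 in octanol GFP+ arrays and 6.96, 6.95, 7.33 and 7.19 in octanol GFP- arrays. After vehicle the values were 9.58, 8.87, 9.01 and 8.64 in GFP+ arrays and 7.76, 7.13, 6.99 and 6.63 in GFP- arrays. Its differences within pools ran from 1.54 to 2.55 log2 after octanol and from 1.74 to 2.01 after vehicle. With an SE of 0.15 it had the smallest adjusted p of the 53 receptors after octanol, 5.68e-06, for a difference of 2.00 (4-fold). After vehicle the difference was 1.90 (SE 0.15, adjusted p = 8.15e-06).

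Olfr633 (MOR12), Olfr635 (MOR5), Olfr649 (MOR31), Olfr683 (MOR40) and Olfr689 (MOR40) were the other receptors among the 8 largest rises of an exposure. Olfr633 averaged 9.15 ± 0.84 log2 in octanol GFP+ cells and 6.70 ± 0.59 in octanol GFP- cells (SD, n = 4). Since 1 of 4 GFP- arrays lay under background in each exposure, only bounds are given: at least 5.24-fold higher after octanol and at least 3.14-fold after vehicle. Its vehicle GFP+ and GFP- arrays overlap. Olfr635 differed by 2.06 (SE 0.20, adjusted p = 3.07e-05) after octanol and 1.72 (SE 0.20, adjusted p = 1.11e-04) after vehicle. Olfr649 differed by 2.03 (SE 0.20, adjusted p = 4.18e-05) and 2.07 (SE 0.20, adjusted p = 3.65e-05), the closest match between exposures of these 5. Olfr683 differed by 2.19 (SE 0.29, adjusted p = 3.12e-04) after octanol and 1.63 (SE 0.29, adjusted p = 0.00216) after vehicle, and Olfr689 by 1.86 (SE 0.15, adjusted p = 8.45e-06) and 1.70 (SE 0.15, adjusted p = 1.68e-05). Olfr635, Olfr649, Olfr683 and Olfr689 were above background on all 16 arrays, and their fractions did not overlap in either exposure.

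Olfr691, a MOR31 receptor next to Olfr692 among the receptors measured here, measured 9.13, 9.47, 9.58 and 9.05 log2 in octanol GFP+ arrays and 7.75, 7.21, 7.22 and 7.75 in octanol GFP- arrays. Vehicle arrays gave 8.56, 9.85, 8.63 and 8.94 in GFP+ cells and 7.49, 8.48, 7.61 and 7.46 in GFP- cells. The fractions did not overlap, and the difference was 1.82 (SE 0.19, adjusted p = 5.26e-05) after octanol and 1.23 (SE 0.19, adjusted p = 7.92e-04) after vehicle.

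Olfr677, of the MOR32 family, went furthest the other way. In octanol GFP+ arrays it measured 8.03, 7.72, 8.45 and 7.36 log2, against 12.93, 12.46, 13.19 and 12.46 in octanol GFP- arrays. In vehicle GFP+ arrays it measured 8.02, 9.78, 6.88 and 7.51, against 12.93, 12.97, 13.10 and 13.04 in vehicle GFP- arrays. The GFP- values of both exposures lay close together, while the vehicle GFP+ values were widely spread, with replicate 2 highest. The receptor was 29.2-fold lower in GFP+ cells after octanol with a log2 difference of -4.87 (SE 0.37, adjusted p = 6.46e-06) and 31.2-fold lower after vehicle with a log2 difference of -4.96 (SE 0.37, adjusted p = 5.69e-06).

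Olfr629, of the MOR26 family, was under background on most GFP+ arrays. It measured 5.76, 7.56, 5.54 and 5.37 log2 in octanol GFP+ arrays and 9.76, 9.99, 9.98 and 9.43 in octanol GFP- arrays. Vehicle GFP+ arrays gave 6.54, 8.50, 4.51 and 5.39 and vehicle GFP- arrays 9.86, 10.18, 9.74 and 9.56. Background was exceeded on 1 of 4 octanol and 2 of 4 vehicle GFP+ arrays. Olfr629 was at least 8.95-fold lower after octanol (adjusted p = 2.98e-04) and at least 7.56-fold lower after vehicle (adjusted p = 3.81e-04). The other MOR26 receptor, Olfr622, ran the opposite way, with 1.18 (SE 0.31, adjusted p = 0.0179) after octanol and 0.66 (SE 0.31, adjusted p = 0.142) after vehicle, where it did not pass.

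Olfr686, of the MOR35 family, had 9.20, 8.60, 8.16 and 7.41 log2 in octanol GFP+ arrays and 11.08, 10.63, 10.71 and 10.55 in octanol GFP- arrays. Vehicle arrays gave 9.55, 8.99, 8.55 and 8.49 in GFP+ cells and 11.13, 11.02, 10.78 and 10.46 in GFP- cells. All GFP+ arrays were below all GFP- arrays. It was 5.28-fold lower in GFP+ cells after octanol with a log2 difference of -2.40 (SE 0.20, adjusted p = 9.81e-06) and 3.86-fold lower after vehicle with a log2 difference of -1.95 (SE 0.20, adjusted p = 4.44e-05).

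Olfr672, a MOR32 receptor also known as Ors46, bears the name of a receptor cloned from single neurons that responded to aliphatic odorants. It had the highest mean of the 53. Octanol GFP+ arrays gave 11.64, 12.05, 12.11 and 10.93 log2 and octanol GFP- arrays 13.41, 13.74, 13.76 and 13.42. Vehicle GFP+ arrays gave 11.20, 13.17, 11.56 and 11.19 and vehicle GFP- arrays 13.58, 13.71, 13.45 and 13.61. The GFP- values were nearly constant and the GFP+ values lower and more spread, with vehicle replicate 2 near the GFP- level. The difference was -1.90 (SE 0.28, adjusted p = 6.61e-04) after octanol (3.73-fold lower) and -1.81 (SE 0.28, adjusted p = 9.05e-04) after vehicle (3.51-fold lower).

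Olfr671 (MOR32) and Olfr632 (MOR2) were lower too. Olfr671 averaged 7.19 ± 0.47 log2 in octanol GFP+ cells and 9.07 ± 0.31 in octanol GFP- cells (SD, n = 4), and differed by -1.88 (SE 0.25, adjusted p = 3.16e-04) after octanol and -1.41 (SE 0.25, adjusted p = 0.00211) after vehicle, where the fractions overlap. Olfr632 differed by -1.48 (SE 0.41, adjusted p = 0.0234) after octanol, 2.78-fold lower, while after vehicle 1 of 4 GFP+ arrays lay under background and the receptor was lower by at least 2.59-fold (adjusted p = 0.02). Its calls were lost without octanol replicate 1, 3 or 4 and without vehicle replicate 1 or 3. Olfr645 (MOR13) passed after octanol alone, -0.95 (SE 0.31, adjusted p = 0.0454), and exceeded background on 2 of 4 GFP- arrays and on 0 of 4 GFP+ arrays, a fall of at least 1.25-fold. That call was lost without octanol replicate 1, 2 or 3, without the pool as a block and with arrays centred on their medians.

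**Figure D3:**
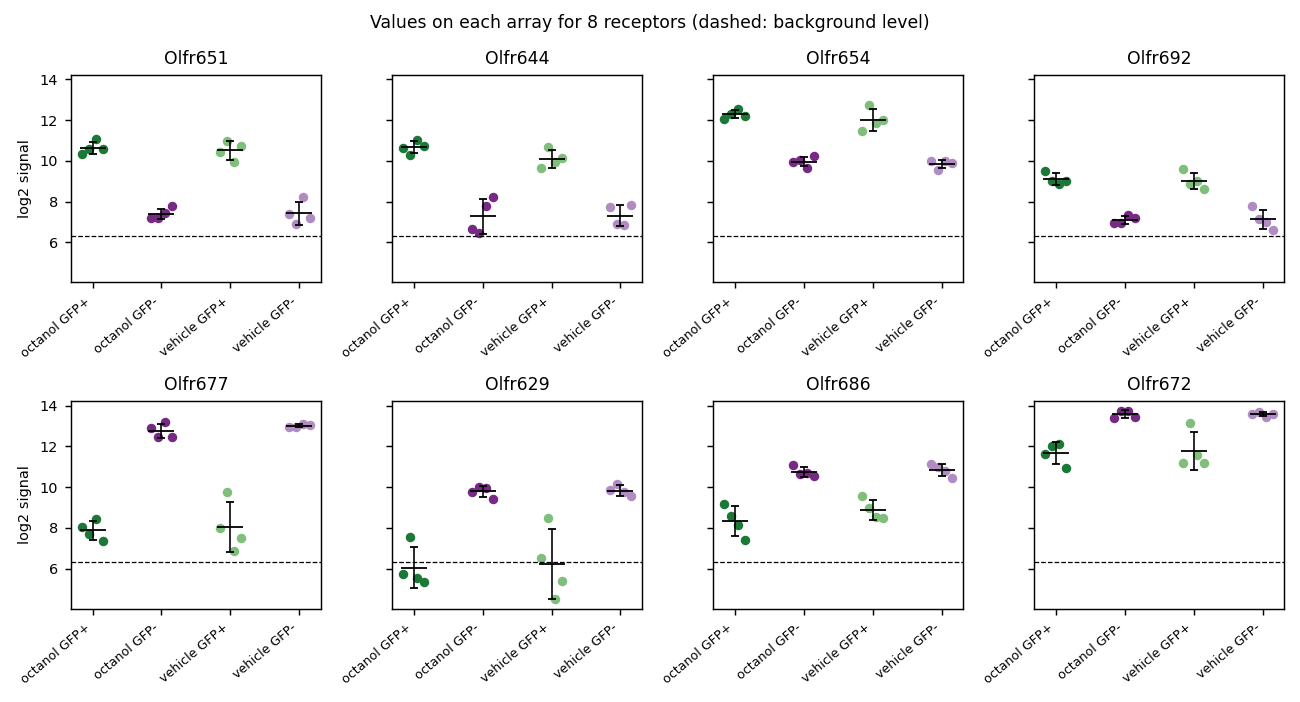
Log2 signal on each of 16 arrays (points) with the group mean and SD (black) for 4 receptors higher in GFP+ cells (top) and 4 lower (bottom); the dashed line is the background level of 6.32 log2. The fractions do not overlap in any of the 8 receptors. A vehicle GFP+ array, replicate 2, sits above the other vehicle GFP+ arrays in all panels but Olfr692 and Olfr686.

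Beside Olfr672, the highest means were those of Olfr685 (MOR37), Olfr679 (MOR40), Olfr652 and Olfr681. Olfr685 averaged 12.68 ± 0.36 log2 in octanol GFP+ cells and 11.75 ± 0.29 in octanol GFP- cells (SD, n = 4), a difference of 0.93 (SE 0.33, adjusted p = 0.0559) that did not pass. Olfr679 differed by 0.43 (SE 0.26, adjusted p = 0.25) after octanol and 0.50 (SE 0.26, adjusted p = 0.189) after vehicle, also short of the threshold. Olfr681 differed by -1.18 (SE 0.37, adjusted p = 0.0372) after octanol and -1.22 (SE 0.37, adjusted p = 0.0336) after vehicle, with that sign in 3 of 4 vehicle pools. Its octanol call was lost with any octanol pool left out, its vehicle call without vehicle replicate 1, 3 or 4, and both without the pool as a block. The octanol call of Olfr681 was also lost with arrays centred on their medians. Olfr652 measured 10.90, 13.53, 11.19 and 11.21 log2 in vehicle GFP+ arrays and 12.90, 12.78, 12.66 and 12.55 in vehicle GFP- arrays, so 3 GFP+ arrays lay below all GFP- arrays and 1 above them. Its difference was -1.02 (SE 0.46, adjusted p = 0.126) after vehicle and -0.95 (SE 0.46, adjusted p = 0.146) after octanol.

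At the other end, Olfr665 and Olfr669 (both MOR34) and Olfr638 (MOR5) had the vehicle differences nearest to 0 among receptors above background on all arrays. They were 0.11 (SE 0.41), -0.13 (SE 0.40) and 0.22 (SE 0.37), and after octanol 0.49 (SE 0.41), -0.05 (SE 0.40) and 0.34 (SE 0.37). In 22 of the 53 receptors the fractions passed in neither exposure. Olfr688 passed after vehicle with every array under background, so no fold is given for it. Olfr630 (MOR17) and Olfr663 (MOR40) passed in both exposures from 0 GFP- arrays above background, and were at least 1.25-fold and 1.02-fold higher after octanol and at least 1.27-fold and 1.12-fold after vehicle.

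Relatives within a MOR family did not always fall on the same side. All 4 MOR31 receptors (Olfr648, Olfr649, Olfr651 and Olfr691) were higher in GFP+ cells in both exposures, with medians of 2.00 log2 after octanol and 1.84 after vehicle. The 7 MOR34 receptors gave 4 higher and 0 lower after octanol and 3 and 0 after vehicle, and the 8 MOR40 receptors 3 and 0, then 4 and 0. The 7 MOR32 receptors were divided, 3 higher (Olfr670, Olfr675 and Olfr676) and 3 lower (Olfr671, Olfr672 and Olfr677) in each exposure. They ranged from -4.87 to 1.69 log2 after octanol. The 5 MOR13 receptors also spread widely, from -0.95 for Olfr645 to 3.40 for Olfr644 after octanol.

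Neighbours in the cluster often differed in direction. Of 52 adjacent pairs among the receptors measured, 30 had fitted differences of like sign. The count is the same in both exposures because all 53 signs match between them. With 41 receptors above 0 and 12 below, many pairs of like sign arise in any order. The correlation between adjacent receptors was -0.05 in each exposure. The median step between adjacent receptors was 1.18 log2 after octanol and 0.97 after vehicle. Mean level over 16 arrays and the sort difference correlated at -0.11 after octanol and -0.15 after vehicle. These are descriptions across genes of the same arrays, without a test.

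Olfr651, Olfr652, Olfr653 and Olfr654 follow each other among the receptors measured and show this mixture side by side, with vehicle differences of 3.09, -1.02, 0.25 and 2.15 log2. Upstream windows were available for 45 of the 53 receptors in the RefSeq promoter table (GRCm38.p6). In 37 of them the annotated start is the start codon itself, so the window need not be a promoter. Of the 8 whose gene model begins before the start codon, the 250 bases before the annotated start are shown for these 4 neighbours and for Olfr629, the receptor with the largest fall among the 8. Capitals mark TAATTG, a homeodomain core, read on either strand (as CAATTA on the strand shown), and the rest is in lower case, 5′ to 3′ on the gene's strand.
Olfr651 (chr7:104552634-104552883, plus strand): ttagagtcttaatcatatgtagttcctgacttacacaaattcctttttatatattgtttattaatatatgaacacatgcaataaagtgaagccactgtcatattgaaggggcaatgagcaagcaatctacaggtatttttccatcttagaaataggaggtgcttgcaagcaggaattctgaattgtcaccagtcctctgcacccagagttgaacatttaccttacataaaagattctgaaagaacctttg
Olfr652 (chr7:104563902-104564151, plus strand): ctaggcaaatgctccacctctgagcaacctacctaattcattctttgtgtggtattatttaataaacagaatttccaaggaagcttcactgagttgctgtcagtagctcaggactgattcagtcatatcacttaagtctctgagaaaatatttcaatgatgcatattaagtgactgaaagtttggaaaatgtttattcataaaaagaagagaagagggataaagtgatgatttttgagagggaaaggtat
Olfr653 (chr7:104579374-104579623, plus strand): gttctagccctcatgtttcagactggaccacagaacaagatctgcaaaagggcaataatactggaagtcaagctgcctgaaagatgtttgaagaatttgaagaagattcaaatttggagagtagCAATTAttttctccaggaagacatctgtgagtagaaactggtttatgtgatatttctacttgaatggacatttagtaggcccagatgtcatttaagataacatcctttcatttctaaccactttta
Olfr654 (chr7:104587469-104587718, plus strand): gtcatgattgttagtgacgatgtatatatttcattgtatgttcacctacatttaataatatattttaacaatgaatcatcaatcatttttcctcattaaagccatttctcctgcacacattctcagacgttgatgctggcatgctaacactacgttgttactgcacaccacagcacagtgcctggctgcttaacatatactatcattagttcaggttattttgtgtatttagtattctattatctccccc
Olfr629 (chr7:103741323-103741572, minus strand): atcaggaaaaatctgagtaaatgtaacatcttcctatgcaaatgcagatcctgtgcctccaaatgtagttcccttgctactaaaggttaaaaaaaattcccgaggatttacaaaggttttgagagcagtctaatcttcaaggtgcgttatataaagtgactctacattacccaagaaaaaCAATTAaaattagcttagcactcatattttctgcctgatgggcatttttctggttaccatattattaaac
The windows of Olfr653 and Olfr629 each hold 1 TAATTG, beginning 126 and 70 bases before the annotated start, and those of Olfr651, Olfr652 and Olfr654 hold none.

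Among the 8 windows 3 hold TAATTG, among all 45 windows 10 (22.2%), and among 948 windows of odorant receptor genes 22.6%, against 7.17% of all 32851 windows. TAATTA, the palindromic form of that core, is a different set of 6 bases, though a window can hold both, and is in 8 of the 45 windows (17.8%), 18% of receptor windows and 4.84% of all. Both strands were searched. A match or its absence describes these letters in these windows only.

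Among vehicle GFP+ arrays, replicate 2 stood apart in these receptors. The median over the 53 receptors was 9.50, 10.49, 8.63 and 8.78 log2 in vehicle GFP+ replicates 1 to 4, and 8.59, 8.88, 8.54 and 8.80 in vehicle GFP- replicates 1 to 4. Octanol GFP+ arrays had medians of 9.49, 9.70, 9.15 and 9.04, and octanol GFP- arrays 7.99, 8.63, 8.44 and 8.85. The vehicle GFP+ array of replicate 2 is thus the highest of 16, and the octanol GFP- array of replicate 1 the lowest.

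In 50 of the 53 receptors vehicle GFP+ replicate 2 was the highest of the 4 vehicle GFP+ arrays, against 24% of all genes. Olfr631, Olfr686 and Olfr692 were the exceptions. It exceeded the mean of the other vehicle GFP+ arrays by a median of 1.47 log2 over the 53 receptors, with a range of -0.20 to 3.02, and by over 1 log2 in 38 of them (71.7%). The same median was 1.10 over the other class I receptors, 0.02 over class II receptors and -0.01 over all genes. Over 1 log2 were 37 of 70 other class I receptors, 11.7% of class II receptors and 1.16% of all genes.

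Markers of the dorsal zone moved with it. Nqo1, a quinone reductase of dorsal zone neurons, measured 15.95, 16.33, 15.93 and 15.79 log2 in vehicle GFP+ replicates 1 to 4 and 15.69, 15.75, 15.74 and 15.91 in vehicle GFP- replicates. Acsm4, an acyl-CoA synthetase of the dorsal zone, measured 14.03, 14.72, 13.80 and 13.79 in vehicle GFP+ replicates 1 to 4 and 13.88, 13.93, 13.73 and 13.83 in vehicle GFP- replicates. Both were highest in vehicle GFP+ replicate 2. Ncam2, an adhesion molecule of the ventral zone, measured 14.64, 14.37, 14.73 and 14.59 in vehicle GFP+ replicates and was lowest in replicate 2. Of the other ventral markers measured, Nrp2 was also lowest there (11.74, 11.45, 11.88 and 11.53) and Msx1, near background, was not (5.53, 6.29, 6.61 and 6.43). Of the other dorsal list members, Robo2 was highest there (12.45, 12.96, 12.52 and 12.29), Ncam1 was not (17.05, 16.96, 16.83 and 16.55) and Acsm2 lay under background on all 16 arrays. The part these markers have in the receptors' values was not tested.

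**Figure D4:**
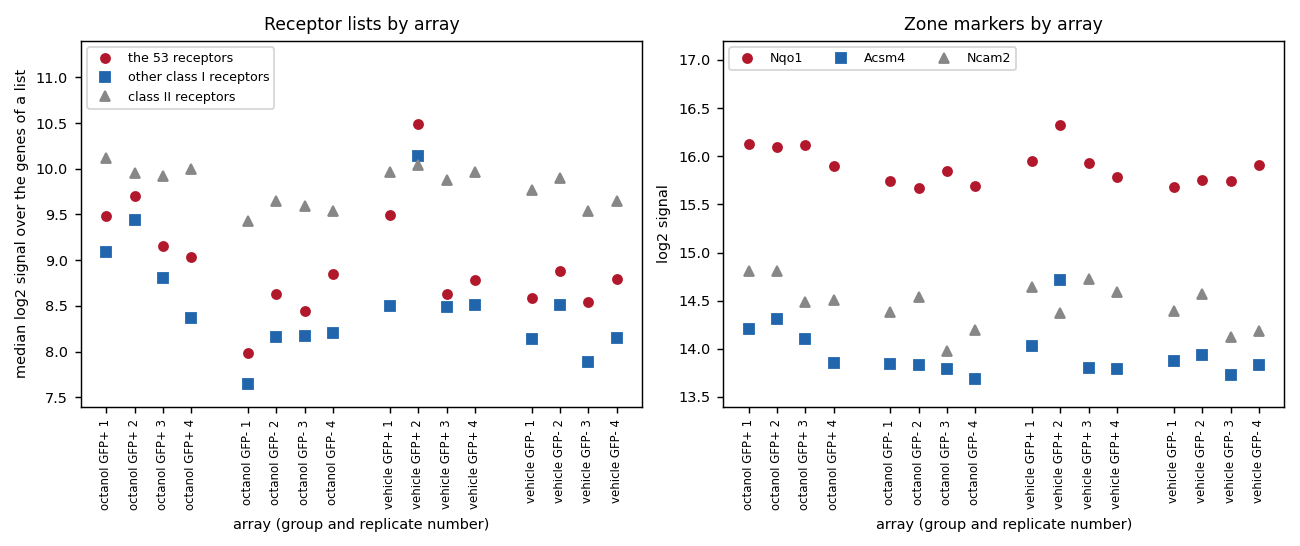
Left, median log2 signal over the 53 receptors, the 70 other class I receptors and the 956 class II receptors on each of 16 arrays; right, log2 signal of the dorsal zone markers Nqo1 and Acsm4 and the ventral zone marker Ncam2 on the same arrays. In vehicle GFP+ replicate 2 both class I medians stand above those of the other vehicle GFP+ arrays, at 10.49 and 10.14, beside the highest Nqo1 and Acsm4 values, while the class II median there, 10.04, is close to the 9.88 to 9.97 of those arrays.

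With vehicle replicate 2 left out, the vehicle sort called 17 receptors higher and 9 lower, beside 10.6% and 12.2% of all genes (14.7% and 13.5% with all pools). The median difference over the receptors was 0.23 log2, against 0.52 with all 4 pools. Of the 27 calls 24 were kept. Olfr663, Olfr666 (MOR34) and Olfr676 (MOR32) no longer passed, and Olfr652 (-1.61 log2, SE 0.39, adjusted p = 0.0165) and Olfr669 (-0.80 log2, SE 0.18, adjusted p = 0.0107) passed as lower. The spread within groups carries the same array: the median SD of a receptor over 4 replicates was 0.42 log2 on octanol GFP+ arrays and 0.37 on octanol GFP- arrays, while for vehicle it was 0.83 on GFP+ and 0.38 on GFP- arrays.

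By pool, the median GFP+ minus GFP- difference over the 53 receptors was 1.22, 0.96, 0.59 and 0.28 log2 in octanol replicates 1 to 4, and 0.30, 1.54, 0.20 and 0.50 in vehicle replicates 1 to 4. Over all genes it lay between 0.08 and 0.16 in every pool. The pools of an exposure thus spread over a wider range of medians than lay between the exposures' own medians of 0.76 and 0.52.

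Octanol changed none of the 53 receptors past the threshold in any of 3 comparisons with vehicle. In the test of whether octanol altered the sort difference, 0 of 53 receptors passed and 0 had an unadjusted p under 0.05 (limma), beside 0% of all genes passing and 4.54% with an unadjusted p under 0.05. Their fitted effects ran from -0.47 to 0.88 log2 with SEs of 0.20 to 0.69, and the smallest adjusted p was 0.998. The fitted sort difference was larger after octanol in 40 of 53 receptors, with a median effect of 0.13 log2. It was larger in 38 of 70 other class I receptors (median 0.04), 704 of 956 class II receptors (median 0.18) and 10816 of 19505 genes (median 0.03).

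Olfr620 (MOR4) had the largest fitted effect, 0.88 (SE 0.46) log2. It measured 7.43, 7.59, 7.41 and 7.19 log2 in octanol GFP+ arrays and 7.42, 8.07, 7.18 and 7.71 in vehicle GFP+ arrays. Octanol GFP- arrays gave 5.73, 7.73, 5.17 and 6.53 and vehicle GFP- arrays 7.79, 7.64, 6.84 and 7.16. The GFP+ values overlap between exposures, and the GFP- values are low in octanol replicates 1 and 3, both under background. Its octanol sort call (1.12 log2) was lost without octanol replicate 1 or 3. Centring arrays on all odorant receptors or on the other class I receptors also removed it. Olfr640 (MOR13) and Olfr633 followed with 0.68 (SE 0.47) and 0.68 (SE 0.41).

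Within GFP+ cells, octanol minus vehicle ranged from -0.93 to 0.64 log2 (SEs of 0.13 to 0.79), with 29 receptors below 0 and a median of -0.06. None passed (smallest adjusted p = 1.00), and 2 had an unadjusted p under 0.05, beside 3.73% of all genes. Olfr655 was the single receptor whose GFP+ arrays did not overlap, where 2.21% of all genes did not, and is named for that after its values were seen. It measured 9.31, 9.70, 10.26 and 9.94 log2 after octanol and 10.48, 11.48, 10.28 and 10.71 after vehicle, a difference of -0.93 (SE 0.27, unadjusted p = 0.0068, adjusted p = 1.00). Olfr644, the other with an unadjusted p under 0.05, had 0.59 (SE 0.23).

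Olfr653 (MOR33), also known as Ors19, shares with Olfr672 an origin in single neurons that responded to aliphatic odorants and is described for its synonym, not by rule. It measured 10.64, 11.96, 11.01 and 10.50 log2 in octanol GFP+ arrays and 9.86, 12.21, 10.43 and 10.99 in vehicle GFP+ arrays. In GFP- cells it measured 10.19, 10.84, 10.84 and 10.50 after octanol and 10.75, 10.93, 10.44 and 10.36 after vehicle. The exposures overlap in both fractions. Octanol minus vehicle was 0.16 (SE 0.48) in GFP+ cells and -0.03 (SE 0.19) in GFP- cells, and the effect on the sort difference was 0.19 (SE 0.43). For Olfr672 the same 3 values were -0.09 (SE 0.43), -0.01 (SE 0.13) and -0.09 (SE 0.40).

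The vehicle GFP+ array of replicate 2 weighs on these comparisons. Without it 45 of 53 receptors were above 0 in GFP+ cells, with a median of 0.36 log2, and 11 had an unadjusted p under 0.05 (10 above 0, 1 below), beside 3.7% of all genes. Olfr644 (0.78 log2, SE 0.19) and Olfr691 (0.60 log2, SE 0.17) were among them. Leaving out any other GFP+ array gave medians of -0.23 to 0.05 log2. None passed after adjustment (smallest adjusted p = 1.00). The effect on the sort difference likewise moved to a median of 0.49 log2 without vehicle replicate 2, with 46 of 53 above 0 and 0 passing. An unadjusted p under 0.05 was found for 11 receptors (10 above 0, 1 below), beside 4.69% of all genes.

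Within GFP- cells, octanol minus vehicle ranged from -1.07 to 0.29 log2 (SEs of 0.12 to 0.53), with 43 of 53 receptors below 0 and a median of -0.15. None passed (smallest adjusted p = 0.982), and 6 had an unadjusted p under 0.05, beside 4.58% of all genes. These 6 (Olfr620, Olfr640, Olfr657, Olfr670, Olfr678 and Olfr683) were all below 0. Olfr640, a MOR13 receptor, was the single one whose groups did not overlap, against 2.57% of all genes, with 7.87, 7.31, 6.83 and 7.78 log2 after octanol and 8.81, 7.94, 7.94 and 8.10 after vehicle. Class II receptors had a like median of -0.16, the other class I receptors -0.13 and all genes -0.02. Above 0 were 10 of the 53 receptors, beside 25 of 70 other class I receptors, 221 of 956 class II receptors and 9002 of 19505 genes. Octanol GFP- replicate 1 was the lowest of its group in 25 of the 53 receptors, where it was the lowest for 32.3% of all genes, and without that array the median was -0.04.

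**Figure D5:**
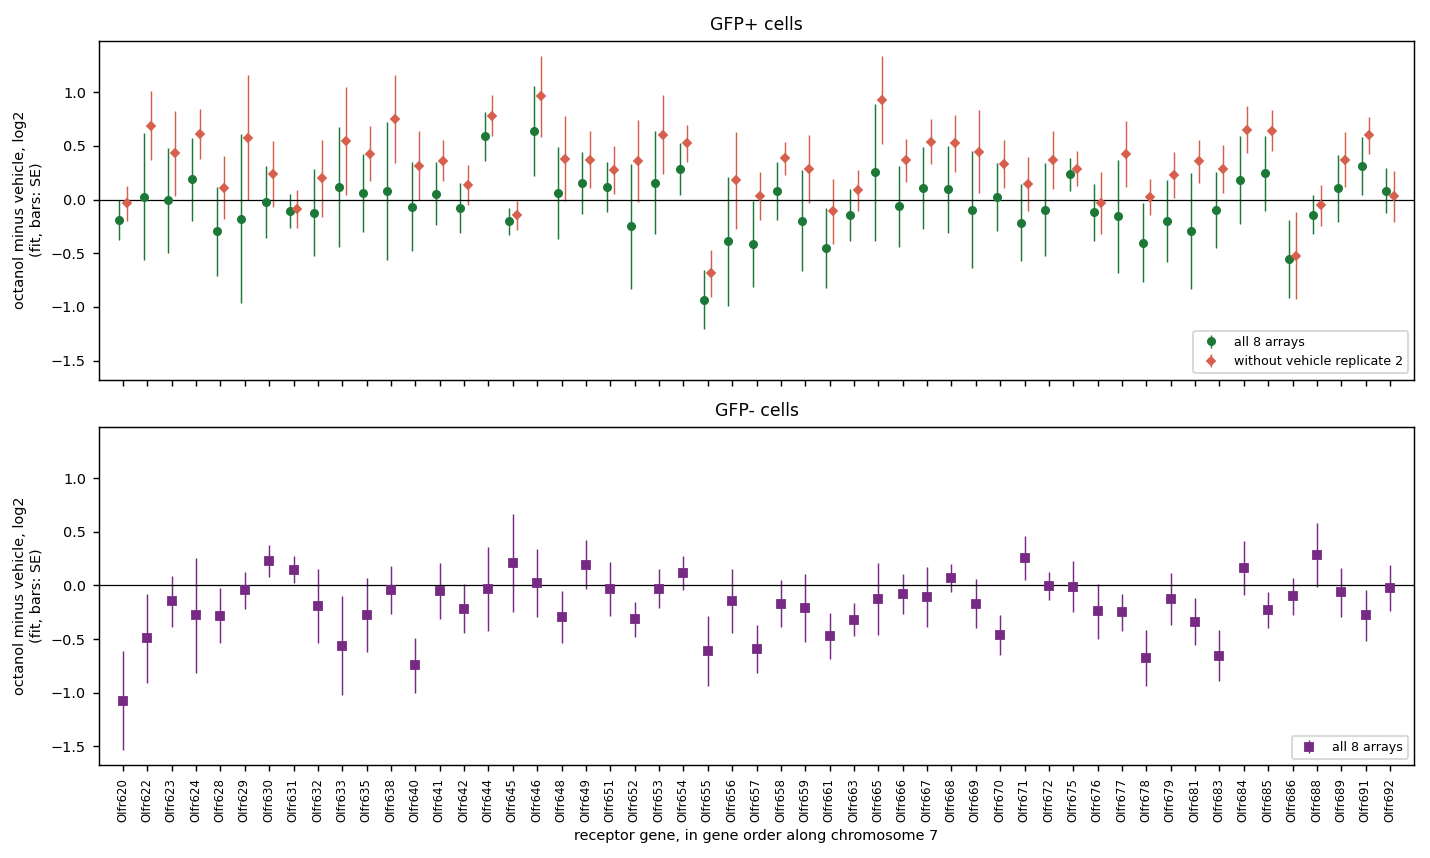
Octanol minus vehicle difference of each receptor in gene order (log2, bars are the SE) in GFP+ cells (top, with all 8 arrays and without vehicle replicate 2) and GFP- cells (bottom). No receptor passed an adjusted p of 0.05; in GFP+ cells 24 of 53 points lie above 0 with all arrays and 45 without vehicle replicate 2.

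The 70 other class I receptors were described in the same way. Of these, 31 were higher and 6 lower between fractions after octanol (median 0.67 log2) and 33 and 5 after vehicle (median 0.70). Class II receptors gave 458 higher and 218 lower of 956 after octanol (median 0.56) and 415 and 238 after vehicle (median 0.40). No test of the 53 receptors against these lists was made.

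Genes that carry the odor response downstream of any receptor, and genes of receptor transport, were described by the same test. Of 16 genes of transduction and receptor transport, 9 passed as higher in GFP+ cells and 0 as lower after octanol (median 0.31 log2) and 7 and 0 after vehicle (median 0.29). Of 13 regulators of receptor choice, 3 were higher and 1 lower after octanol, and 1 and 1 after vehicle. The lists share genes, so their counts are not separate. Gnal, Adcy3, Cnga2, Cnga4, Cngb1, Ano2, Rtp1, Rtp2 and Omp are in both the transduction and transport list and the mature neuron list. Rtp1 and Rtp2 are also among the regulators. Of the 5 genes on the dorsal zone list 1 was higher in each exposure (limma), with medians of 0.32 log2 after octanol and 0.24 after vehicle. Neither Nqo1 nor Acsm4 passed in either exposure. Robo2 had like means in GFP+ and GFP- cells (12.52 and 12.5 log2 after octanol, 12.56 and 12.64 after vehicle). The call thus came from Ncam1 or Acsm2, and Acsm2 lay under background on every array. Of 3 measured ventral zone markers 0 were called, with like medians of 0.36 log2 after octanol and 0.26 after vehicle. Markers of other cells were lower in GFP+ cells after both exposures: 7 of 9 for immature neurons (1 was higher), all 4 measured for progenitors, 4 of 6 for sustentacular cells, 3 of 5 for Bowman's glands, all 6 for microvillar cells, all 6 for neutrophils, all 6 measured for myeloid cells and all 4 measured for lymphoid cells. The median neutrophil marker lay between 7.27 and 10.83 log2 on GFP+ arrays and between 15.67 and 17.06 on GFP- arrays. The part of these cells in the receptors' differences was not tested.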

How the data were processed

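Total RNA of 16 sorted fractions (8 pools of 3 mice, 4 pools per exposure) was read on Clariom S arrays. The authors deposited log2 signals per probe set made with Affymetrix Expression Console, per the submitters' processing notes; its algorithm, settings and genome build are not given in the labels, and depth does not apply to arrays, where the number of pools limits precision. Of 28846 probe sets, 6704 are controls, 19572 have 1 gene symbol and 2570 none, by the platform annotation. The probe set of highest mean was kept per gene (67 left out), giving 19505 genes, all matched to RefSeq (GRCm38.p6) by gene ID.

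Tests were made in R 4.3.3 with limma 3.58.1 (lmFit, eBayes, two-sided) and Benjamini-Hochberg adjustment over all 19505 genes at 0.05. The sort differences and the octanol effect on them were fitted together over 16 arrays, the pool being a block; octanol against vehicle was fitted on the 8 arrays of each fraction with no block. That both fractions of a replicate number come from the same mice was taken from 24 mice making 8 pools of 3. The deviations of the 2 fractions of a pool correlated at 0.0779 to 0.222 (mean 0.16), over 0.1 in 6 of 8 pools. Arrays of the same number and fraction in the other exposure, from other mice, correlated to a like degree. Their means were 0.153 in GFP+ and 0.209 in GFP- cells, so these values do not settle the pairing. Pools are separate mice. The p-values of the sort differences measure how far the difference within a pool varied from pool to pool, a spread estimated over both exposures together. Those of octanol against vehicle within a fraction measure the spread between pools.

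Bounds ("at least") raise values under the background level of 6.32 log2, the 95th percentile of vomeronasal receptor genes, to that level. Receptors were named by rule: the 8 largest rises and falls of each exposure past the threshold with 1 sign in all pools, the 5 highest means, the 3 sort differences nearest 0, the 3 largest octanol effects and those with a published role. The receptors, rules and marker lists were chosen with earlier results of these data known. Alternatives were scaling, a filter on dim genes, the mean of probe sets, the block and each pool or array left out. The script was tested on simulated data. Protein identity between receptors was not analysed here.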

Additional observations from a re-analysis of the deposited data

Results flagged for a closer look

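In groups of 4 arrays, a sample stood far from the other 3 (the gap to the nearest taking most of the range) in 7 of 108 groups tested, those of 26 named receptors and of the median over all 53, where chance gives about 5.4 (1 in 20). In vehicle GFP+ replicate 2, Olfr681 measured 13.19 log2 against 10.41 to 10.71 in the other vehicle GFP+ arrays, Olfr685 13.62 against 11.98 to 12.14, Olfr679 13.73 against 11.88 to 12.14, and Olfr652 13.53 against 10.90 to 11.21. These are 4 of the 5 receptors of highest mean, and all 4 values lie in the array whose dorsal zone markers Nqo1 (16.33 log2) and Acsm4 (14.72 log2) were also the highest. The part of those markers was not tested. Among vehicle GFP- arrays, Olfr645 measured 7.87 log2 in replicate 2 against 5.72 to 5.87, and Olfr691 8.48 in replicate 2 against 7.46 to 7.61. Olfr649 measured 7.17 log2 in vehicle GFP- replicate 4, against 6.42 to 6.54 in the other vehicle GFP- arrays.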

How the results depend on the processing

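The counts of receptors higher or lower moved by over 1.5 times with scaling. The total called, 30 after octanol and 27 after vehicle as deposited, moved by less than that but was not constant. It was 40 after each exposure with arrays centred on their medians, and 24 after octanol with arrays centred on the other class I receptors. Centred on array medians, 34 were higher after octanol and 33 after vehicle, against 22 and 20 as deposited; all genes moved too, to 58.5% and 65.4% higher, against 16.7% and 14.7% as deposited. Centred on the other class I receptors, a scaling chosen after seeing the data, 11 were higher and 13 lower after octanol, and 10 higher and 11 lower after vehicle. The smallest p-values of that fit lay far below those of the other scalings, so its counts do not show the effect of scaling alone. The cause was not tested. Leaving out each octanol pool in turn gave 17 to 23 higher and 5 to 6 lower, beside 9.22% to 13.7% and 11.1% to 12% of all genes. Leaving out each vehicle pool gave 17 to 19 higher and 5 to 9 lower, beside 8.84% to 10.6% and 11.7% to 12.2%. These fits have fewer samples. Of 19 named receptors that passed after octanol, Olfr632, Olfr681, Olfr645 and Olfr620 lost their call in at least 1 setting, and of 17 after vehicle, Olfr632, Olfr681 and Olfr691. For Olfr691 the only such setting was centring on the other class I receptors. None of these named receptors that passed reversed its direction in the settings run. Among receptors that did not pass some did, such as Olfr665, whose vehicle difference went from 0.11 to -0.45 log2 without vehicle replicate 2. Centred on the other class I receptors, the median over the 53 receptors fell below 0, to -0.12 log2 after octanol and -0.22 after vehicle.

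Without the replicate block 21 receptors were higher and 6 lower after octanol, beside 14.4% and 12.7% of all genes. After vehicle 19 were higher and 6 lower, beside 12.6% and 13%. Of the named receptors, Olfr681 lost both calls and Olfr645 its octanol call. The labels do not say that replicate numbers pair pools across exposures. Deviations of arrays of the same number in the other exposure correlated at 0.0582 to 0.23 in GFP+ cells and 0.0719 to 0.332 in GFP- cells, over 0.1 in 3 of 4 pairs each. With the numbers as a block, 0 receptors passed in GFP+ or GFP- cells (limma), and 4 and 7 had an unadjusted p under 0.05. In all settings 0 receptors passed in the 3 octanol comparisons, with up to 11 at an unadjusted p under 0.05. Receptors near background are limited to bounds.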
